A study of Mus musculus with 31 samples.

Results

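Skin treated for 6 weeks with a topical JAK3 inhibitor was compared with skin that had received PBS for the same time, in C3H/HeJ mice with established disease that the series title calls AA, read here as alopecia areata. The comparison rests on 6 of the 31 arrays of the series, 3 labelled jak3i and 3 labelled PBS, and describes all 18193 genes that could be named from a single gene symbol. For reference it also uses the 3 jak1i arrays (a JAK1 inhibitor arm) at 6 weeks, and the 3 jak3i and 3 PBS arrays at 0 weeks. All of these groups share the strain, the tissue and the established disease. The inhibitors are known only by the target in their label. Their dose, the vehicle, the skin site, and the age and sex of the mice are not given in the sources used here, nor is it stated whether the skin at 0 and 6 weeks came from the same animals. The series text calls the 3 arrays of a group biological replicates.

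Alopecia areata is an autoimmune disease in which cytotoxic T lymphocytes gather around growing hair follicles, and C3H/HeJ mice develop a similar hair loss. JAK3 is a tyrosine kinase bound to the common gamma chain, the receptor subunit shared by interleukins such as IL-2, IL-7 and IL-15, where it works together with JAK1 to phosphorylate STAT transcription factors. Interferon gamma signals through JAK1 and JAK2 and acts on genes with GAS elements, whereas type I interferons use JAK1 and TYK2 and act on genes with ISRE elements.

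Values are log2 expression levels after RMA, so that a difference of 1 is a doubling, and for each gene the probe set with the highest mean was used. In the sentences below, values are given in the order of replicates 1, 2 and 3, and differences are jak3i minus PBS on the log2 scale with the standard error (SE) of the limma fit. A gene is called lower or higher where its adjusted p (limma, Benjamini-Hochberg over 18193 genes) is under 0.05. The 6 arrays had medians between 6.16 and 6.24. Epidermal keratin genes were bright on each of the 6 arrays: Krt14 lay between 12.97 and 14.05 and Krt10 between 13.92 and 14.32, and the collagen gene Col3a1 lay between 12.06 and 13.96. Because the whole tissue was measured, fewer cells of a type and less RNA per cell cannot be told apart.

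The arrays did not form tight groups. The jak3i replicate 1 correlated at 0.9527 with each of the other jak3i arrays across genes, which correlated at 0.9886 with each other, and it was closer to PBS replicate 3, at 0.9757. After subtracting each gene's mean over all 31 arrays, the mean of 12 hair shaft keratins was 3.35, -2.62 and -2.26 in the jak3i arrays against 0.18, 1.14 and 1.97 in the PBS arrays, so that the jak3i arrays held the highest and the lowest values of the 6. Fat cell genes were uneven too, the mean of 14 adipokine and secreted factor genes being 0.15, 1.31 and 1.26 against -0.01, -1.41 and -0.84. The part of hair and fat in the differences between the groups was not tested beyond the fits that leave out 1 array or carry the hair keratin mean as a covariate. Each call was recomputed with each of the 6 arrays left out in turn.

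Of 18193 genes, 353 (1.94%) passed the test, of which 272 were lower (1.5%) and 81 higher (0.445%) in jak3i skin. At least a doubling or halving was seen for 165 of the lower and 41 of the higher genes. The smallest adjusted p was 0.000644, for the chemokine gene Ccl5. For 345 called genes the 3 values of one group all lay outside those of the other, which was so for 15.6% of all genes tested (7.93% lower and 7.69% higher). Centring each array on its median moved the balance, to 237 lower (1.3%) and 170 higher genes (0.934%), or 2.24% in all. The main fit takes its estimate of spread from all 31 arrays, and a fit on the 6 compared arrays alone called 38 lower genes (0.209%) and 1 higher gene (0.0055%), or 0.214%.

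**Figure D1:**
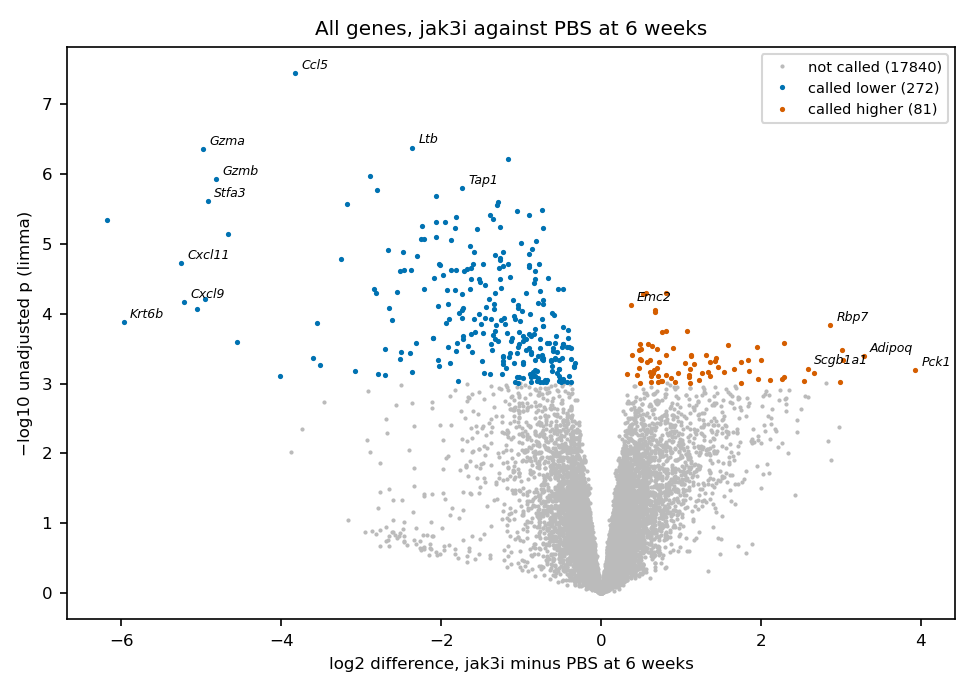
Each point is 1 of the 18193 genes, with the log2 difference of jak3i minus PBS at 6 weeks on the x axis and the negative log10 of the unadjusted limma p on the y axis. The 272 genes called lower reach farther from 0 and to smaller p than the 81 called higher, with Ccl5 at the top and Krt6b and the CXCR3 ligands at the far left.

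The count of called genes depended on single arrays. Without jak3i replicate 1, the array rich in hair keratins, 428 genes were lower (2.35%) and 714 higher (3.92%), or 6.28% together. Without PBS replicate 1 the counts were 384 (2.11%) and 441 (2.42%), or 4.53% together, so that in both of these fits more genes were higher than lower. Without PBS replicate 2 they were 69 (0.379%) and 0 (0%), and without PBS replicate 3 73 (0.401%) and 3 (0.0165%), or 0.418% together. Without jak3i replicate 2 the lower genes numbered 191 (1.05%) and the higher genes 11 (0.0605%), or 1.11%, and without jak3i replicate 3 they numbered 210 (1.15%) and 12 (0.066%), or 1.22%. In these fits 47 genes were called in every case, all of them lower, among them Gzma, Gzmb, Ccl5, Cxcl11, Cd3d, Cd8b1, Ltb, Nkg7, Tap1, Irf9 and Stfa3, and no gene was called higher in every case. Any other call below was lost without at least 1 array, mostly PBS replicate 2 or 3. With the hair keratin mean as a covariate, 225 genes were lower (1.24%) and 42 higher (0.231%), or 1.47%. The share called was 3.56% without dim genes (2.51% lower, 1.04% higher), 1.64% with the mean of all probe sets (1.35% lower, 0.291% higher) and 1.55% with the replicate number as a block (1.32% lower, 0.231% higher).

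**Figure D2:**
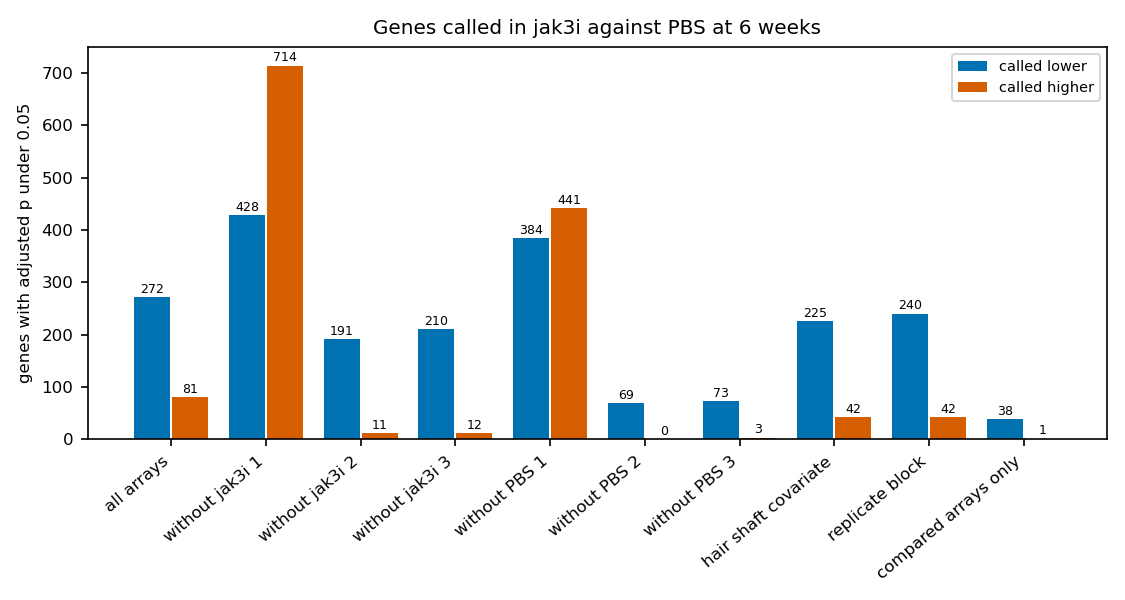
Bars give the number of genes called lower (blue) and higher (orange) in jak3i against PBS at 6 weeks, on a linear axis from 0, for all arrays and for each other fit named under the bars. The orange bar ranges from 0 without PBS replicate 2 to 714 without jak3i replicate 1, and the blue bar of the fits on all 31 arrays or with 1 array left out ranges from 69 to 428.

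The effector genes of cytotoxic lymphocytes were among the largest differences, with granzyme transcripts low on the scale in jak3i skin. Granzymes are serine proteases that killer cells deliver into their targets through pores made by perforin. Gzma stood at 4.85, 5.10 and 5.40 in jak3i skin and at 10.28, 10.40 and 9.63 in PBS skin. Gzmb stood at 4.72, 4.76 and 4.73 against 8.89, 9.57 and 10.22. Both pairs of groups lay far apart, and the jak3i values of Gzmb hardly varied. The differences were -4.98 (SE 0.71, adjusted p = 0.00264) for Gzma and -4.82 (SE 0.73, adjusted p = 0.00352) for Gzmb. The jak3i values of both genes lay under 6.177, the limit used here for dim genes, so no fold is given. Among genes named below, the jak3i values of Prf1, Klrc1, Klrk1, Cd8b1, Havcr2, Cxcl10, Cxcl11, Il2rb and Socs1 also all lay under this limit. The same held for Mmp13, Tbx21, Ms4a4b, Ddx60 and the gene model 2610528A11Rik, and this list is not complete. Of 18 cytotoxic granule and killing genes, 8 were lower and 0 higher, with a median difference of -0.93 beside 0.025 over all genes. Over all genes 1.5% were called lower and 0.445% higher, the shares to set beside each list count below.

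The other called members of this list were smaller in size. Nkg7, a granule membrane protein of killer cells, was 6.09, 6.67 and 6.31 against 8.06, 8.53 and 8.69, a difference of -2.07 (SE 0.33, adjusted p = 0.00386). Prf1, which encodes perforin, was 5.76, 6.00 and 5.89 against 6.54, 6.76 and 6.98, or -0.88 (SE 0.21, adjusted p = 0.0305). Its other probe set differed by 0.04. The ligands of death receptors also fell. Fasl was 3.62, 3.71 and 3.69 against 4.68, 5.92 and 4.82 (-1.46, SE 0.37, adjusted p = 0.0439), and Tnfsf10, the ligand TRAIL, was 6.19, 7.75 and 7.07 against 8.63, 8.73 and 9.42 (-1.92, SE 0.38, adjusted p = 0.00968). Each Fasl value lay under the limit for dim genes, in PBS skin too. Ctsw, a cathepsin of cytotoxic cells, differed by -1.45 and Gzmc by -3.08. Members that did not pass included Srgn, the granule proteoglycan serglycin, at -1.03 (adjusted p = 0.191), and Gzmk at -0.19 (adjusted p = 0.746). The number of lower members was 4 without PBS replicate 2, 3 without PBS replicate 3 and 5 without jak3i replicate 3, and adjusted p rose to 0.29 for Fasl without PBS replicate 2 and to 0.149 for Prf1 and 0.17 for Gzmc without PBS replicate 3.

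Receptors of natural killer cells and of the T cells that share them were lower for the CD94 and NKG2A pair. Klrd1, which encodes CD94, was 5.96, 6.33 and 5.57 against 7.83, 8.30 and 8.0, and Klrc1, its partner NKG2A, was 4.02, 4.19 and 4.41 against 6.70, 7.32 and 7.26. The groups did not overlap for either gene, and the differences were -2.09 (SE 0.40, adjusted p = 0.00787) and -2.89 (SE 0.44, adjusted p = 0.00352). These were 2 of 14 genes measured in that list, with 0 higher and a median of -0.28. Klrk1, the activating receptor NKG2D, was 5.29, 5.69 and 5.99 against 6.80, 6.84 and 6.88, a difference of -1.18 (SE 0.32) that missed the threshold with an adjusted p of 0.0543. Without PBS replicate 2 only Klrc1 was called, as Klrd1 had an adjusted p of 0.0664.

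The CD3 chain genes Cd3d and Cd3g of the T cell receptor and the genes of the coreceptor CD8 were lower. Cd3e and Cd247 of the same receptor complex were measured but not called. CD8 marks the killer T cells that read peptides on MHC class I molecules. Cd8b1 was 5.04, 4.24 and 4.63 in jak3i skin against 6.39, 7.30 and 6.95 in PBS skin, and Cd8a was 6.27, 6.00 and 6.40 against 6.96, 7.91 and 7.90. Neither pair of groups overlapped, with differences of -2.24 (SE 0.38, adjusted p = 0.00407) and -1.37 (SE 0.29, adjusted p = 0.0167). Cd3d was 6.60, 6.85 and 6.73 against 8.03, 7.97 and 8.04, tight in both groups, and differed by -1.29 (SE 0.21, adjusted p = 0.00386). In contrast Cd4, the coreceptor of helper T cells, was 6.61, 6.61 and 6.73 against 6.60, 6.40 and 6.64, a difference of 0.10 (SE 0.12, adjusted p = 0.727); the difference between Cd4 and the CD8 genes was not tested.

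Of 20 measured genes of this list 7 were lower and 0 higher, with a median of -0.55. At 0 weeks, before treatment, the same list already had a median difference of -0.41 between the arms, and the median of the change from 0 to 6 weeks was -0.20. Cd3g differed by -1.17 at 0 weeks, Cd8a by -1.12 and Cd8b1 by -1.31, none of them called at that time. The rest of the called members were Cd3g at -1.32, Cd2, an adhesion receptor of T cells, at -1.31, Cd27, a costimulatory receptor, at -0.83 and Trat1, an adaptor of the receptor complex, at -0.76. Ptprc, the general leukocyte marker CD45, lay just outside the threshold, at 9.52, 10.26 and 10.16 against 11.16, 10.71 and 11.10 (-1.01, SE 0.27, adjusted p = 0.0504). The lower members numbered 2 without PBS replicate 2 (Cd3d and Cd8b1) and 4 without PBS replicate 3. Itgae, the integrin chain CD103 that holds T cells in epithelia, was 7.09, 8.15 and 7.29 against 9.47, 10.04 and 9.20 (-2.06, SE 0.34, adjusted p = 0.00397) and was called whichever array was left out.

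Genes of checkpoint and regulatory receptors were lower with the lymphocyte genes. Icos, a costimulatory receptor of activated T cells, was 5.11, 6.04 and 6.22 against 7.76, 7.31 and 7.23 (-1.64, SE 0.29, adjusted p = 0.00563). Havcr2, the inhibitory receptor TIM-3, was 5.52, 5.81 and 5.83 against 6.81, 7.12 and 7.01 (-1.26, SE 0.24, adjusted p = 0.00787). Cd274, which encodes the ligand PD-L1, differed by -2.03, Cd244a by -0.90 and Tnfrsf18, the receptor GITR, by -0.79, which made 5 lower and 0 higher of 16 genes, median -0.61. Foxp3, the master regulator of regulatory T cells, was dim on all 6 arrays, between 3.95 and 4.38, and differed by -0.14 (SE 0.14, adjusted p = 0.669). The count was 2 without PBS replicate 2 and 3 without PBS replicate 3, and Cd274 lost its call without jak3i replicate 1, PBS replicate 2 or PBS replicate 3 (adjusted p up to 0.169).

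**Figure D3:**
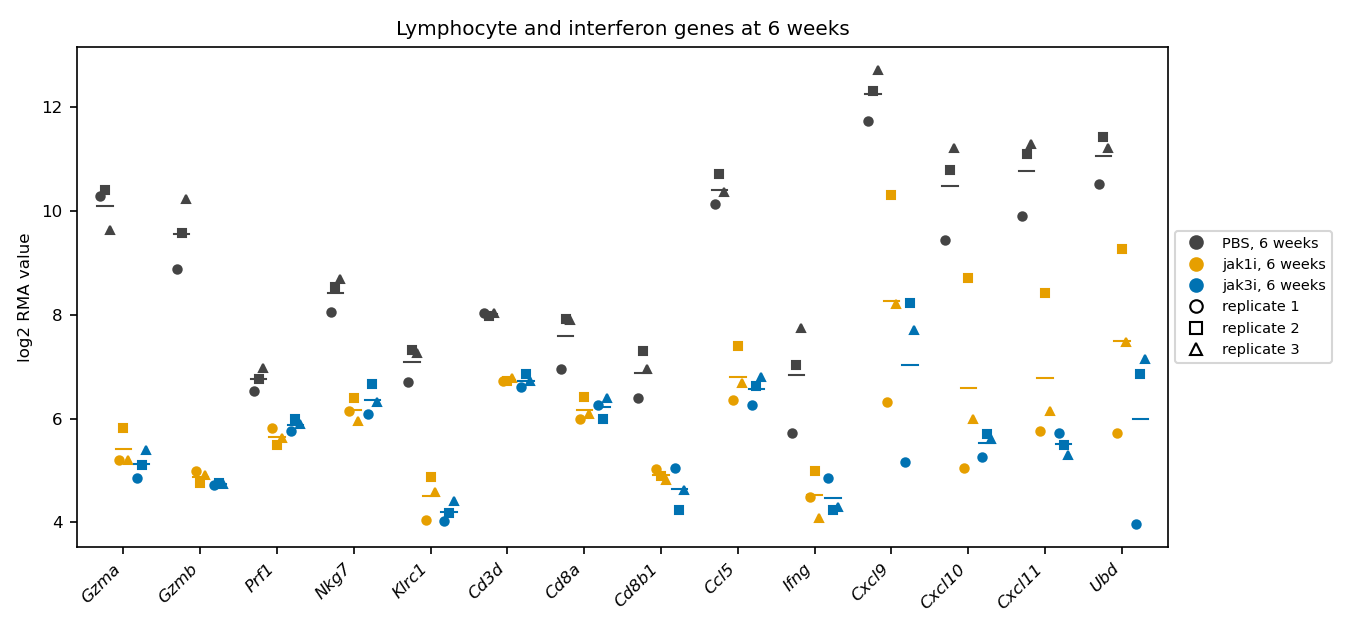
Points are log2 RMA values of single arrays at 6 weeks for genes of cytotoxic lymphocytes, T cells and the interferon response, coloured by arm and shaped by replicate, with a line at each group mean. For each gene shown, all 3 jak3i values lie below all 3 PBS values, and for Cxcl9 and Ubd jak3i replicate 1 lies well below the other jak3i arrays, at 5.17 and 3.97.

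Chemokines that attract these cells had the lowest median difference of any list, -5.09 over 4 genes of the CXCR3 axis, of which 3 were lower and 0 higher. CXCL9, CXCL10 and CXCL11 are induced by interferon and call in T cells that carry the receptor CXCR3. Cxcl11 was 5.73, 5.50 and 5.29 against 9.90, 11.09 and 11.29, and Cxcl10 was 5.25, 5.71 and 5.6 against 9.44, 10.78 and 11.21. Cxcl9 was more uneven, at 5.17, 8.23 and 7.71 against 11.74, 12.31 and 12.72, but its groups did not overlap either. The differences were -5.25 (SE 0.97, adjusted p = 0.00673) for Cxcl11, -4.95 (SE 1.01, adjusted p = 0.0117) for Cxcl10 and -5.22 (SE 1.07, adjusted p = 0.0124) for Cxcl9. Cxcr3 itself was 6.09, 6.39 and 6.87 against 7.30, 7.04 and 6.84 and did not pass (-0.61, SE 0.22, adjusted p = 0.136). Only Cxcl11 was called without PBS replicate 2 or without PBS replicate 3, where Cxcl9 and Cxcl10 had adjusted p up to 0.0723 and 0.0740.

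Among 34 other chemokines and receptors 4 were lower and 0 higher, with a median of -0.76. Ccl5, also called RANTES and made by activated T cells, was 6.26, 6.63 and 6.81 against 10.13, 10.71 and 10.36. Its groups stood far apart, from 6.81 as the highest jak3i value to 10.13 as the lowest PBS value, and its difference of -3.83 (SE 0.47) had the smallest adjusted p of all genes, 0.000644. Cxcr6, a receptor of tissue T cells, was 5.74, 7.09 and 6.71 against 8.53, 9.01 and 8.66 (-2.22, SE 0.39, adjusted p = 0.00498), and its ligand Cxcl16 was 7.79, 8.31 and 8.70 against 9.61, 9.89 and 9.83 (-1.51, SE 0.29, adjusted p = 0.0084). Ccr1 differed by -2.70 (adjusted p = 0.0455), and lost its call without any 1 of the 6 arrays. The monocyte chemokine Ccl2 was 6.49, 6.81 and 7.32 against 8.14, 9.27 and 10.22, a difference of -2.34 (SE 0.73) with an adjusted p of 0.0951. Without PBS replicate 2 or 3 the list held 2 lower members.

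Interferon gamma itself was lower in jak3i skin, where its values were under the limit for dim genes. Ifng was 4.86, 4.23 and 4.29 against 5.72, 7.03 and 7.75, without overlap but with a wide spread in the PBS arrays (-2.37, SE 0.60, adjusted p = 0.0431). Ifngr2, a chain of its receptor, was 7.92, 8.21 and 8.39 against 8.69, 8.85 and 9.0 (-0.68, SE 0.16, adjusted p = 0.0269), and Ifngr1 was 9.76, 10.34 and 10.85 against 10.21, 9.78 and 9.70 (0.42, SE 0.20, adjusted p = 0.30). Both calls were lost without PBS replicate 2, PBS replicate 3 or jak3i replicate 2, that of Ifng also without jak3i replicate 3 and that of Ifngr2 without jak3i replicate 1, with adjusted p up to 0.193 for Ifng and 0.135 for Ifngr2. Ifnb1, a type I interferon, lay between 4.86 and 5.38 on the 6 arrays (0.10, adjusted p = 0.778). Of 9 interferon and receptor genes measured, 2 were lower and 0 higher.

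Genes that interferons induce were lower as broad groups. The interferon-inducible GTPases, which attack the membranes around intracellular microbes, had 8 of 12 measured members lower and 0 higher, with a median of -2.58 and all 12 pairs of groups without overlap. Over all genes 7.93% lay lower in jak3i skin without overlap. Igtp was 7.82, 10.24 and 10.92 against 12.11, 12.15 and 13.10, and Gbp6 was 7.56, 9.64 and 9.87 against 11.27, 11.48 and 12.41. In both, jak3i replicate 1 was by far the lowest of the 6 arrays, a pattern shared by the list mean of -2.92, -1.09 and -0.78 against 0.59, 0.65 and 1.48. The differences were -2.79 (SE 0.72, adjusted p = 0.0445) and -2.70 (SE 0.64, adjusted p = 0.0285), and without jak3i replicate 1 they were -1.88 and -1.97. The number of lower members was 4 without jak3i replicate 1, 4 with the hair covariate, 1 without PBS replicate 2 and 0 without PBS replicate 3.

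The remaining called GTPases were Gbp8 at -4.02, the antiviral Mx1 at -2.81, Ifi47 at -2.61, Irgm1 at -2.55, Gbp3 at -2.39 and Gbp7 at -2.10. Guanylate-binding proteins are close relatives, so a probe set may pick up more than 1 of them. Iigp1 was 7.99, 11.18 and 11.79 against 12.92, 12.64 and 13.47 and did not pass (-2.69, SE 0.82, adjusted p = 0.0871).

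Of 26 other genes of the interferon gamma response, 10 were lower and 0 higher, with a median of -1.13. Ubd, a ubiquitin-like protein, was 3.97, 6.86 and 7.15 against 10.52, 11.42 and 11.21, a difference of -5.06 (SE 1.06, adjusted p = 0.0138), with jak3i replicate 1 under the limit for dim genes. The transcription factor Irf1, which acts early in the response, was 8.80, 9.98 and 9.99 against 10.81, 11.15 and 11.65 (-1.61, SE 0.38, adjusted p = 0.0302). Both regulators of MHC transcription were lower as well. Ciita, for class II, was 5.96, 7.09 and 6.68 against 7.81, 7.88 and 8.47 (-1.48, SE 0.27, adjusted p = 0.00673), and Nlrc5, for class I, was 8.94, 10.31 and 10.26 against 10.73, 11.45 and 11.35 (-1.34, SE 0.28, adjusted p = 0.0127). The count was 4 without PBS replicate 2 and 2 without PBS replicate 3, where Ubd had adjusted p up to 0.0842.

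The type I interferon response held the most lower genes of any list, 20 of 32 with 0 higher and a median of -1.29. Oasl2, of the oligoadenylate synthetase family that senses viral RNA, was 6.34, 6.60 and 6.42 against 9.13, 9.86 and 10.13 (-3.25, SE 0.60, adjusted p = 0.00667). Ifit1, which binds viral RNA, was 6.49, 7.13 and 7.14 against 8.95, 9.52 and 10.24 (-2.65, SE 0.55, adjusted p = 0.0137). Usp18, a protease that dampens interferon signalling, was 7.19, 7.68 and 7.64 against 9.31, 9.75 and 10.20 (-2.25, SE 0.39, adjusted p = 0.00498). Here jak3i replicate 1 stood less far below the others than it did for the GTPases. The sensors Ifih1, Dhx58 and Ddx58, which detect viral RNA, differed by -1.35, -2.04 and -1.04, and the factors Irf7 and Irf9 by -1.91 and -1.39. Rsad2, the antiviral protein viperin, was 7.20, 8.18 and 8.09 against 8.61, 8.48 and 8.99 and did not pass (-0.87, SE 0.50, adjusted p = 0.394). Without PBS replicate 2 the list held 10 lower members and without PBS replicate 3 it held 5, with Oasl2, Usp18, Parp9, Irf9 and Ifih1 called in every fit that left out 1 array. Isg15, Gbp4 and Gbp5 are not analysed here, as no probe set of theirs carried a single gene symbol.

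Promoter sequences are shown for the interferon genes with the largest falls that hold a match to a STAT or ISRE motif, since these genes moved together. The motifs searched were TTCNNNGAA for GAS and, for ISRE, GAAA followed by any 2 bases and GAAA, on both strands, and matches of the ISRE form may overlap each other. The sequences are the 250 bases before the first listed start of each gene, 5′ to 3′ on the strand of the gene, from RefSeq on GRCm38.p6, with the matches in capitals. They cover chr11:58199306-58199555 (plus strand) for Igtp, chr19:34640639-34640888 (plus) for Ifit1, chr11:48871421-48871670 (minus) for Irgm1, chr3:142559794-142560043 (plus) for Gbp3 and chr5:120907526-120907775 (minus) for Oas1a.
Igtp: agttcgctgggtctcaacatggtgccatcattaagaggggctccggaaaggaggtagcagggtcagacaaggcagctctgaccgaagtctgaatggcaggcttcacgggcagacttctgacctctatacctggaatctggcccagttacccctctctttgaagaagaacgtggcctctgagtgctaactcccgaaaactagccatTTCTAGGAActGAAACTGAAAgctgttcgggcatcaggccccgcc
Ifit1: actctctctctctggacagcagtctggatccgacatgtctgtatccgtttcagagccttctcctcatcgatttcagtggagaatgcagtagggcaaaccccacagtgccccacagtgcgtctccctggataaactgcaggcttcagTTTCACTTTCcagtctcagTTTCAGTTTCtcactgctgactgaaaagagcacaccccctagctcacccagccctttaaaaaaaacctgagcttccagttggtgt
Irgm1: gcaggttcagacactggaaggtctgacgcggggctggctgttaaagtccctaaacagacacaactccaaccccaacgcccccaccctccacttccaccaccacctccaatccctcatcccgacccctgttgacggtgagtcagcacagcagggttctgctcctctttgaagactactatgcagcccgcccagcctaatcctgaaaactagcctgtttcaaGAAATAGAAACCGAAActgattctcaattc
Gbp3: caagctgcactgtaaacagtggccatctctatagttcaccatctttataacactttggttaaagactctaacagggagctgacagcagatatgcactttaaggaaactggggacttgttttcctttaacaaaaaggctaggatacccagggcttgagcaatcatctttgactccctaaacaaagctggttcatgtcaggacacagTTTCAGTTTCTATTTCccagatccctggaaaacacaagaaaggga
Oas1a: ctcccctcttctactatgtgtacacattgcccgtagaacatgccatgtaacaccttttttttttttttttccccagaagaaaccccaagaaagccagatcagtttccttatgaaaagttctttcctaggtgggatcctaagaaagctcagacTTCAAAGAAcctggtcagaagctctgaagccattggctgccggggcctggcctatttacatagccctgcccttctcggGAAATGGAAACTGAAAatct

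In Igtp the GAS and the ISRE matches stand close together, 37 and 25 bases before the start counted from their last base. Ifit1 holds its ISRE matches at 95 and 76 bases, on the opposite strand. The matches of Irgm1 (21 and 15 bases), Gbp3 (36 and 30, also on the opposite strand) and Oas1a (11 and 5) are overlapping ISRE forms, and Oas1a also has a GAS form at 90 bases. Promoters that also include the 50 bases after the start were found for 14452 of the 18193 genes. Of these 3.02% held the ISRE form and 7.29% the GAS form. Among the 199 promoters of genes called lower the shares were 13.1% and 13.6%, and among the 58 of genes called higher both were 3.45%. These shares describe letters in a window and carry no test.

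Genes that load peptides on MHC class I molecules were lower, 8 of 16 with 0 higher and a median of -1.09. Tap1, a subunit of the transporter that brings peptides to the endoplasmic reticulum, was 8.10, 9.22 and 9.05 against 10.20, 10.73 and 10.67 (-1.74, SE 0.27, adjusted p = 0.00382), and Tap2, the other subunit, differed by -1.62. Psmb9, a subunit of the immunoproteasome that cuts these peptides, was 8.76, 10.52 and 10.55 against 11.30, 11.89 and 12.10 (-1.82, SE 0.36, adjusted p = 0.00968), and its partners Psmb8 and Psmb10 differed by -1.53 and -1.50. The jak3i replicate 1 was again the lowest array for each of these genes. The heavy chain gene H2-K1 was 9.41, 10.88 and 11.02 against 11.47, 11.90 and 11.59 (-1.22, SE 0.29, adjusted p = 0.033), and B2m, the light chain, was 13.29, 13.97 and 13.98 against 14.12, 14.14 and 14.11 and did not pass (-0.38, SE 0.12, adjusted p = 0.111). Probe sets of the H2 heavy chains may cross-react, as their genes are near-identical. The count was 3 without PBS replicate 2 and 2 without PBS replicate 3.

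For MHC class II, which presents peptides to helper T cells, 1 of 12 genes was lower. That gene was H2-DMb2, a peptide loader, at 7.93, 8.39 and 8.05 against 9.01, 9.23 and 9.27 (-1.05, SE 0.17, adjusted p = 0.00397). The structural genes were closer, H2-Ab1 at -0.89 (adjusted p = 0.0595) and Cd74, the invariant chain, at -0.77 (adjusted p = 0.11), and 11 of the 12 genes had a negative difference. Without jak3i replicate 3 the list had 4 lower members.

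Of the cytokine receptors and kinases that JAK3 works with, few passed the test at the level of RNA. Il2rb, the signalling chain shared by the receptors of IL-2 and IL-15, was 5.31, 5.38 and 5.0 against 6.42, 6.79 and 7.25 (-1.59, SE 0.29, adjusted p = 0.00593), and Il4ra was 7.56, 7.67 and 7.71 against 8.82, 9.03 and 8.66 (-1.19, SE 0.30, adjusted p = 0.0398). These were 2 of 15 measured gamma-chain cytokines and receptors, with 0 higher. Il15, which sustains cytotoxic cells, was 6.77, 7.34 and 7.48 against 7.38, 6.90 and 7.52 (-0.06, SE 0.24, adjusted p = 0.929). Il2rg, the common gamma chain, is not analysed here. Il2rb lost its call without PBS replicate 3 (adjusted p = 0.0512), and the list then held 0 lower members.

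Jak3 was 5.54, 5.72 and 5.93 against 5.92, 5.79 and 6.03 (-0.18, SE 0.14, adjusted p = 0.558), and Jak1 was 10.02, 10.31 and 10.60 against 10.53, 10.25 and 10.31 (-0.05, SE 0.15, adjusted p = 0.903). The groups overlapped for both kinases; a kinase inhibitor acts on the protein, so these values do not check the treatment label. Among 10 kinase and STAT genes, Stat2 was lower, at 5.98, 6.93 and 6.92 against 8.10, 8.26 and 8.78 (-1.77, SE 0.37, adjusted p = 0.0149), as was Stat3, at 9.71, 10.36 and 10.40 against 10.98, 10.99 and 10.77 (-0.76, SE 0.18, adjusted p = 0.0285). Both calls were lost without PBS replicate 2 or 3, and that of Stat3 also without jak3i replicate 1, with adjusted p up to 0.0919 for Stat2 and 0.148 for Stat3.

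Of 20 STAT target and feedback genes 3 were lower and 0 higher. Cish, a feedback inhibitor induced by STAT5, was 9.26, 9.03 and 8.54 against 9.35, 9.93 and 10.14 (-0.87, SE 0.21, adjusted p = 0.0317). Pim2, a survival kinase, was 6.24, 6.11 and 6.35 against 6.71, 6.74 and 6.82 (-0.52, SE 0.13, adjusted p = 0.0341). The groups of both genes lay close together without overlap, for Cish with 9.26 on jak3i replicate 1 beside 9.35 on PBS replicate 1. Bcl3, an NF-kB regulator, differed by -1.58 (SE 0.35, adjusted p = 0.0222), and Socs1, an inhibitor of the Janus kinases, was 5.30, 5.35 and 5.21 against 5.76, 6.33 and 6.88 and did not pass (-1.03, SE 0.32, adjusted p = 0.0949). The list had 0 lower members without jak3i replicate 2, without PBS replicate 2 and without PBS replicate 3.

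Further inflammatory lists held a few lower genes each. Ltb, lymphotoxin beta, which organises lymphoid tissue, was 6.41, 7.33 and 6.64 against 8.98, 9.45 and 9.04 (-2.36, SE 0.34, adjusted p = 0.00264), and Lta, its partner, differed by -1.72. Along with Il18r1 at -1.40, Il18rap at -0.90, the NF-kB inhibitor Tnfaip3 at -1.03 and Il1a at -0.79, this gave 6 lower and 0 higher of 35 cytokine and TNF family genes, median -0.37, and 1 without PBS replicate 2 (Ltb) and 2 without PBS replicate 3 or jak3i replicate 2. Tnf was between 6.10 and 6.47 on the 6 arrays (-0.11, adjusted p = 0.729). Icam1, the endothelial and keratinocyte ligand of lymphocyte integrins, was 8.17, 8.86 and 8.80 against 9.82, 9.71 and 9.98 (-1.22, SE 0.22, adjusted p = 0.00593), and Itgal, the integrin chain that binds it, was 6.62, 7.16 and 6.46 against 8.27, 8.31 and 8.43 (-1.59, SE 0.34, adjusted p = 0.0167). Adhesion genes were lower in 5 of 22 cases, 0 higher, median -0.80, and in 2 without PBS replicate 2 or 3. Clec7a, the fungal receptor Dectin-1, was 5.71, 6.91 and 6.33 against 9.53, 9.55 and 10.50 (-3.55, SE 0.77, adjusted p = 0.0182), 1 of 3 lower pattern recognition genes of 19, beside Trim21 and the inflammasome adaptor Pycard; that list had 1 without PBS replicate 2 and 0 without PBS replicate 3.

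Markers of other leukocytes gave few calls. Of 26 macrophage genes 0 were lower and 1 was higher, Mertk, a receptor for the uptake of dead cells, at 8.36, 8.63 and 8.97 against 7.89, 7.14 and 7.68 (1.08, SE 0.24, adjusted p = 0.0216), which lost its call without jak3i replicate 2 or 3 or PBS replicate 2 or 3 (adjusted p up to 0.175). The macrophage list mean was -0.43, -0.53 and 0.17 in jak3i skin against 0.79, -0.98 and 0.09 in PBS skin, so the groups overlapped. The neutrophil protein gene S100a8 was 8.78, 6.21 and 7.94 against 13.14, 9.21 and 8.88, where PBS replicate 1 stood apart (-2.77, SE 1.24, adjusted p = 0.257), and 0 of 18 neutrophil genes were called. Mast cell proteases were uneven. Cpa3 was 9.65, 10.92 and 11.92 against 10.82, 7.11 and 8.47 (2.03, SE 0.81, adjusted p = 0.193), and 0 of 14 mast cell and 0 of 14 B cell and plasma cell genes were called. The only dendritic cell list gene called was Epcam, also a keratinocyte gene, at -0.88.

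The stress keratin genes Krt6b and Krt16 were far lower, whereas Krt6a and Krt17 were measured but not called. KRT6 and KRT16 are the paired keratins of wounded and inflamed epidermis. Krt6b was 4.83, 5.73 and 6.30 against 11.77, 11.56 and 11.44, a difference of -5.97 (SE 1.29, adjusted p = 0.0176), with jak3i replicates 1 and 2 under the limit for dim genes. Krt16 was 7.65, 7.94 and 8.99 against 11.59, 12.16 and 11.37 (-3.52, SE 0.87, adjusted p = 0.0371). Stfa3, a stefin that inhibits cysteine proteases, was 6.5, 6.53 and 6.64 against 11.77, 11.03 and 11.62 (-4.92, SE 0.78, adjusted p = 0.00386), with both groups tight and far apart. These 3 were the lower members among 25 measured stress keratin, small proline-rich and stefin genes, with 0 higher, 24 negative differences and a median of -1.98.

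The kallikrein protease Klk6 was 8.86, 6.22 and 8.13 against 11.58, 11.37 and 10.65 and did not pass (-3.46, SE 0.98, adjusted p = 0.0681). Stfa3 was called in every fit that left out 1 array, while the list count was 5 without jak3i replicate 1 and 1 without PBS replicate 2 or 3. Krt6b lost its call without either of those PBS arrays and Krt16 lost it without any 1 array other than PBS replicate 1; adjusted p reached 0.0842 for Krt6b and 0.191 for Krt16. Mmp13, a collagenase, was 3.68, 3.60 and 4.2 against 8.45, 9.02 and 7.68 (-4.55, SE 1.05, adjusted p = 0.0269), and lost its call without jak3i replicate 2 or 3 or PBS replicate 2 or 3 (adjusted p up to 0.146).

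The late cornified envelope genes of cluster Lce1 were the lower members of terminal differentiation, 4 of 41 with 0 higher and a median of -0.37. Their proteins strengthen the outermost layer of the skin. Lce1f was 9.98, 10.66 and 10.84 against 12.60, 12.64 and 11.97, and Lce1h was 8.95, 9.30 and 9.02 against 11.28, 11.41 and 10.28, without overlap. The differences were -1.91 (SE 0.39, adjusted p = 0.0127) and -1.90 (SE 0.41, adjusted p = 0.0167), and those of Lce1i and Lce1d were -1.74 and -1.66. The genes of the cluster are near-identical, so their probe sets may not be independent. Flg, the barrier protein filaggrin, was 12.05, 11.05 and 11.65 against 12.71, 12.72 and 12.18 (-0.95, SE 0.33, adjusted p = 0.134). Basal keratins were close: Krt14 was 12.97, 13.70 and 13.61 against 13.74, 14.05 and 13.58 (-0.36, SE 0.16, adjusted p = 0.252), and 0 of 13 basal keratinocyte genes were called. No Lce1 gene was called without PBS replicate 2, where the list held 0 members.

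Hair follicle genes split the jak3i arrays rather than the groups. Krt31, a hair shaft keratin, was 12.85, 6.32 and 6.31 against 9.12, 10.60 and 11.44, so that jak3i replicate 1 lay above all PBS arrays and the other jak3i arrays far below them. Krt25, an inner root sheath keratin, was 14.11, 10.32 and 8.64 against 13.13, 13.09 and 13.80. The differences were -1.90 (SE 1.45, adjusted p = 0.552) and -2.32 (SE 1.42, adjusted p = 0.429). None of 12 hair shaft keratins, 33 keratin-associated protein genes or 20 hair matrix genes was called, with medians of -1.73, -2.25 and -0.48. Without jak3i replicate 1 the medians were -3.90, -4.58 and -1.16, 2, 1 and 3 members were lower, and 1 hair matrix gene was higher. Of 19 inner root sheath genes 1 was lower, Krt16, which the stress keratin list also holds. The jak1i arrays at 6 weeks were uneven as well, with hair shaft keratin means from -2.29 to 2.62. Their means ran from -2.87 to 3.12 for keratin-associated proteins and from -2.15 to 1.98 for the inner root sheath.

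Genes of cell division also split the jak3i arrays. Their list mean was 0.49, -0.43 and -0.80 against -0.04, 0.44 and 0.62, with 0 of 35 called, a median of -0.64 and a negative difference for each of the 35. Mki67, the proliferation marker, was 11.20, 9.95 and 9.31 against 10.49, 11.14 and 11.37 (-0.85, SE 0.42, adjusted p = 0.31). Without jak3i replicate 1, 11 were lower. The bulge keratin Krt15 was 12.89, 13.49 and 13.15 against 12.55, 12.36 and 11.90, without overlap but not called (0.91, SE 0.37, adjusted p = 0.203). Among 18 bulge, 19 dermal papilla and 20 FGF genes 0 were called, and of 36 Wnt and BMP genes 1 was higher, Wnt5b at 0.93. Melanocyte genes, 0 of 12 called, were also highest on jak3i replicate 1, with Tyr at 8.78, 4.83 and 4.41 against 5.63, 6.09 and 8.22.

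**Figure D4:**
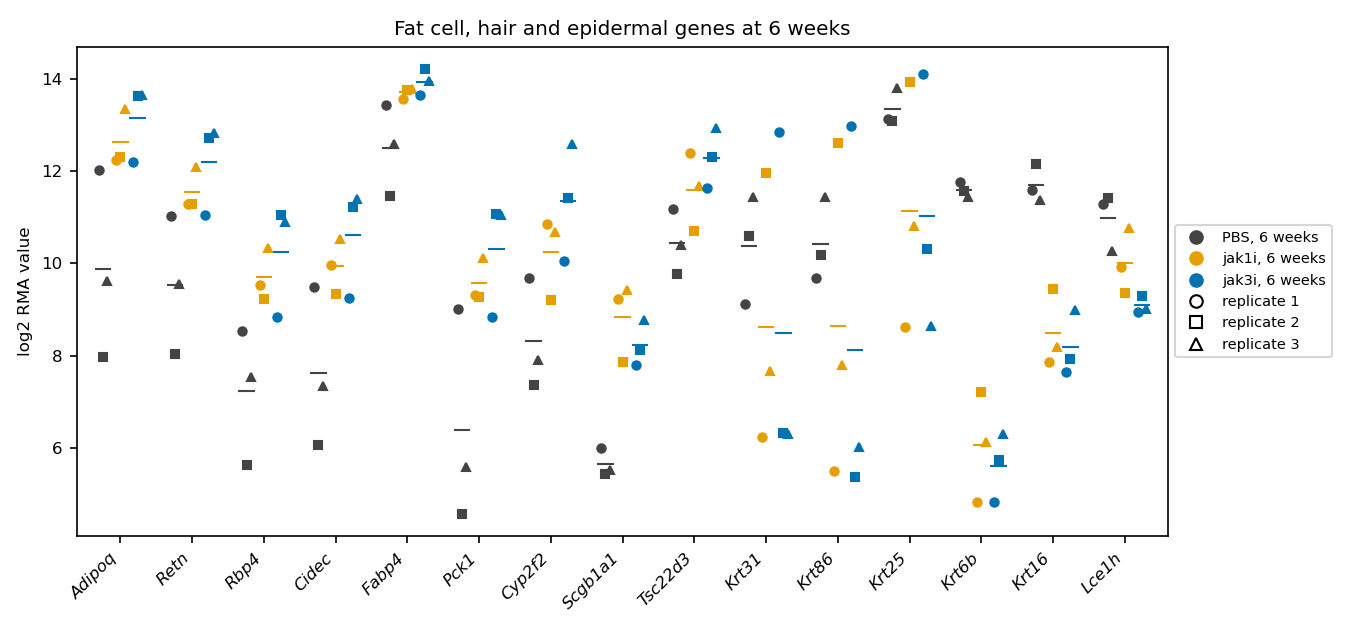
Points are log2 RMA values of single arrays at 6 weeks for genes of fat cells, secretory and stress genes, hair and epidermis, coloured by arm and shaped by replicate, with a line at each group mean. The hair keratins Krt31 and Krt86 are highest on jak3i replicate 1 and lowest on jak3i replicates 2 and 3, whereas Krt6b and Krt16 are lower on every jak3i array.

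Fat cell genes were among the genes higher in jak3i skin. Adiponectin and resistin are hormones that adipocytes secrete. Adipoq was 12.19, 13.63 and 13.66 against 12.02, 7.97 and 9.63, and Retn was 11.04, 12.73 and 12.82 against 11.02, 8.03 and 9.55. The groups nearly met at jak3i replicate 1 and PBS replicate 1, while PBS replicate 2 was the lowest array for both genes. The differences were 3.29 (SE 0.79, adjusted p = 0.0325) and 2.66 (SE 0.68, adjusted p = 0.0438). With Rbp4, a carrier of retinol, at 3.02 (SE 0.71, adjusted p = 0.0293), 3 of 14 adipokine genes were higher and 0 lower, median 1.67.

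Of 36 genes of fat synthesis, storage and lipolysis 4 were higher and 0 lower, with a median of 0.89. Pck1, which makes glycerol for triglyceride, was 8.83, 11.08 and 11.05 against 9.01, 4.58 and 5.58, and Cidec, a lipid droplet protein, was 9.25, 11.22 and 11.40 against 9.50, 6.06 and 7.35. Both had the largest sizes in the list, 3.93 (SE 0.99, adjusted p = 0.0416) and 2.99 (SE 0.79, adjusted p = 0.0497), and in both PBS replicate 1 lay above jak3i replicate 1. A further probe set of Pck1 differed by -0.04. Fabp4, a fatty acid carrier, differed by 1.44 and the glycerol channel Aqp7 by 0.88. Pparg, the master factor of fat cells, lay between 8.12 and 10.08 in jak3i skin and between 6.77 and 8.34 in PBS skin, overlapping, and did not pass (2.03, SE 0.56, adjusted p = 0.0613).

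These counts rested on single arrays more than those of the lymphocyte genes. Without jak3i replicate 1, 8 adipokine and 24 lipid genes were higher, and without PBS replicate 1, 8 and 10. Without PBS replicate 2 or PBS replicate 3 none was called in either list, nor without jak3i replicate 3, and without jak3i replicate 2 the counts were 1 and 0. Adipoq had a difference of 2.34 and an adjusted p of 0.25 without PBS replicate 2. With the hair covariate 1 adipokine and 0 lipid genes were called.

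Secretoglobin, carboxylesterase and detoxification genes were also higher in 3 of 33 cases, with 0 lower, median 1.14. Scgb1a1, a small secreted protein known from airway club cells, was 7.81, 8.12 and 8.78 against 6.00, 5.44 and 5.52. Its groups lay well apart, with jak3i replicate 1 closer to the other jak3i arrays than for the fat genes (2.59, SE 0.65, adjusted p = 0.0404). Cyp2f2, a cytochrome P450, was 10.05, 11.41 and 12.59 against 9.69, 7.37 and 7.90 (3.03, SE 0.74, adjusted p = 0.0341), and Ephx2, an epoxide hydrolase, differed by 1.96. Tsc22d3, the glucocorticoid-induced leucine zipper GILZ, was 11.63, 12.31 and 12.94 against 11.17, 9.77 and 10.40 (1.85, SE 0.47, adjusted p = 0.0426). It was the 1 higher gene among 19 clock and clock output genes, where Bhlhe40, a repressor of the clock, differed by -1.35 and was the 1 lower gene. The clock gene Per2 was 6.51, 9.39 and 9.0 against 6.68, 5.25 and 5.95 (2.34, SE 0.83, adjusted p = 0.137). Without jak3i replicate 1, 18 secretoglobin and detoxification genes and 10 clock genes were higher, without PBS replicate 1, 17 and 5, and without any 1 of the other 4 arrays 0 of either list, with adjusted p up to 0.183 for Scgb1a1.

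Rbp7, a retinol-binding protein of fat and its vessels, was 10.09, 10.56 and 10.61 against 8.89, 6.40 and 7.37 and had the smallest adjusted p among the larger rises (2.87, SE 0.63, adjusted p = 0.0187). Aoc3, an amine oxidase of fat cells, was higher by 2.54, Nnmt, a methyltransferase, by 2.29, Mrap, a partner of the corticotropin receptor, by 2.29, and Pde3b, the phosphodiesterase through which insulin restrains lipolysis, by 2.12. Vessel genes had mostly positive differences without calls. The endothelial list had 0 of 20 called with a median of 0.82, and 9 were higher without jak3i replicate 1 and 7 without PBS replicate 1. Cdh5, the endothelial cadherin, was 6.86, 8.34 and 7.83 against 7.55, 5.74 and 6.48 (1.09, SE 0.40, adjusted p = 0.152). Skeletal muscle, a layer under the skin that a biopsy may include, had 0 of 25 genes called and a list mean of 0.20, 0.54 and 0.95 against 0.93, -0.58 and 0.53. Of 29 fibroblast and collagen genes 0 were called, with a median of 0.24.

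The remaining lists held single calls or none. Slc2a1, the glucose transporter GLUT1, was 10.09, 10.51 and 10.71 against 11.56, 12.29 and 12.26 (-1.60, SE 0.30, adjusted p = 0.00673), and with the glycolytic enzyme gene Pfkp at -1.15 it made 2 lower of 21 glycolysis and hypoxia genes; the list had 0 without PBS replicate 2 or 3. Krt79, a keratin of the sebaceous duct, was 12.60, 12.51 and 12.98 against 13.60, 13.91 and 13.26 (-0.89, SE 0.23, adjusted p = 0.0445), the 1 call among 23 sebaceous gland genes. Bak1, a mitochondrial executor of apoptosis, differed by -1.05 as 1 of 14 cell death genes, and Slamf1, a receptor of activated lymphocytes, by -0.60 as 1 of 17 costimulation genes. None of 16 complement and coagulation, 18 antimicrobial, 6 lymphatic, 12 pericyte or 13 nerve genes was called.

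**Figure D5:**
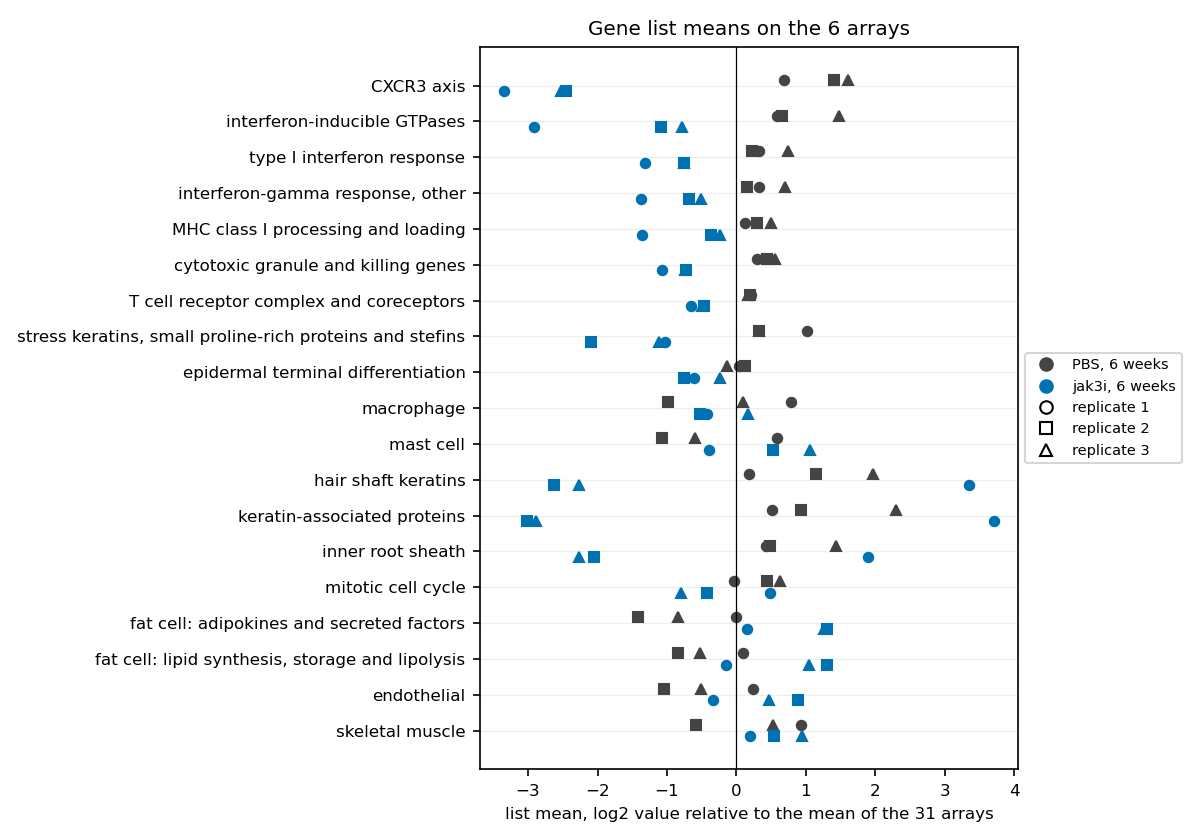
Each row is a gene list and each point the mean of its genes on 1 array, on the log2 scale after subtracting each gene's mean over all 31 arrays, grey for PBS and blue for jak3i, with a shape for each replicate. The 3 jak3i arrays lie below the 3 PBS arrays for the lymphocyte and interferon lists, whereas for hair shaft keratins jak3i replicate 1 lies at 3.35 and the other jak3i arrays at -2.62 and -2.26.

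The JAK1 inhibitor arm at the same week allowed a test of whether these differences were particular to jak3i. Against the same 3 PBS arrays, 248 genes were called for jak1i (1.36%), 222 lower (1.22%) and 26 higher (0.143%); the comparisons share the PBS arrays, so their values are set side by side only. The genes called lower for jak3i had median differences of -1.22 in jak3i and -1.03 in jak1i skin, and those called higher 1.05 and 0.69. Tested directly as 1 pair of inhibitors at 1 matched week, at doses that are not given, jak3i and jak1i skin differed in 0 genes (0%) at an adjusted p under 0.05 in limma, with 470 genes at an unadjusted p under 0.05 and a smallest adjusted p of 1.0.

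The intervals of that direct difference were wide for many genes. For Gzmb it was -0.15 (95% interval -1.67 to 1.37), for Ccl5 -0.24 (-1.22 to 0.73) and for Cd3d -0.02 (-0.45 to 0.41). Cxcl10 was 5.04, 8.71 and 5.99 in jak1i skin, with replicate 2 well above the others, and its difference of jak3i minus jak1i was -1.06 (-3.15 to 1.03). Of the 125 called list members, 7 had an interval that left out 0: the 4 Lce1 genes, Il1a and Pycard below it and Mertk above it. Over all 18193 genes, 470 had an unadjusted p under 0.05 in this limma contrast. The called list members were also chosen by their jak3i values, which enter this difference. Lce1d was 11.91, 10.93 and 12.56 in jak1i skin, near the PBS values of 12.21, 12.31 and 11.77, and jak3i minus jak1i was -1.36 (-2.16 to -0.56) for Lce1d and -1.11 (-1.87 to -0.35) for Lce1i. For Mertk it was 0.59 (0.09 to 1.09). These intervals are not adjusted for the number of genes, and none of these genes passed the adjusted test. The smallest unadjusted p belonged to Kctd4, Lnx1 and Rpn2, with differences of -1.26 (-1.85 to -0.67), -0.72 (-1.04 to -0.39) and 0.37 (0.18 to 0.56). Adipoq was 12.24, 12.30 and 13.35 in jak1i skin, and jak3i minus jak1i was 0.53 (-1.11 to 2.17).

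Before treatment the arms were compared in the same way. At 0 weeks 0 genes (0%) differed between the jak3i and PBS arms in limma, with 1378 at an unadjusted p under 0.05 and a smallest adjusted p of 0.149. The genes called lower at 6 weeks had a median difference of -0.01 at 0 weeks, and those called higher 0.07, but lists differed: the median at 0 weeks was -0.41 for the T cell list, -0.19 for the cytotoxic list and 0.34 for the type I interferon list. Some T cell genes already stood below PBS at that time, Cd8b1 by -1.31 and Cd3d by -0.76, and Gzma by -1.44, none of them called. When the difference at 6 weeks was tested against the difference at 0 weeks, 1 gene (0.0055%) passed, Stfa3, whose means were 11.99 at 0 weeks and 6.56 at 6 weeks in the jak3i arm and 9.85 and 11.47 in the PBS arm, a change of -7.06 (SE 1.11, adjusted p = 0.0345). At an unadjusted p under 0.05 there were 2194 genes. For Gzmb the change was -4.39 (adjusted p = 0.116), for Ccl5 -2.92 (adjusted p = 0.105) and for Cd8a -0.25 (adjusted p = 0.873).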

How the data were processed

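Skin RNA was measured on single-colour oligonucleotide arrays. Per the submitters' processing notes, the authors normalised the arrays together by RMA, and they deposited log2 values; the RMA version and settings are not given in the sources used here. Of 45101 probe sets, 34945 carried a single gene symbol, and the probe set with the highest mean stood for each of 18193 genes. Groups were taken from the labels. A linear model with 11 group means over 31 arrays was fitted in limma 3.58.1 (R 4.3.3), with 20 residual and 2.5 prior degrees of freedom, and p-values were adjusted by Benjamini-Hochberg over all genes.

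Named genes were the called genes without overlap between groups among the 30 largest falls, the 30 largest rises or the 10 of smallest p; every called member of a list and the 4 members of largest size in each; and, for the jak3i versus jak1i and interaction contrasts, the 5 largest called in each direction or, with none called, the 3 of smallest p. Symbols that are only gene model names were skipped. Others are named where stated, or as defining genes of their list. The comparison and the gene lists were chosen with earlier results of these data known. Whether replicates shared a cage, extraction or scan batch was not tested, and their number limits the precision. Same-numbered arrays of the arms did not deviate together, so replicate numbers were not used in the main fit.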

Additional observations from a re-analysis of the deposited data

Results flagged for a closer look

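Stfa3 was the gene whose difference between the arms itself differed between the weeks, tested as the difference of jak3i minus PBS at 6 weeks less that at 0 weeks, which was -7.06 (SE 1.11, limma, adjusted p = 0.0345). It was higher in the jak3i arm than in the PBS arm at 0 weeks by 2.15 and lower at 6 weeks by -4.92. With 1 array left out, this contrast between the weeks called from 0 to 1 genes. The stefin genes Stfa1 and Stfa2 are not analysed here, and whether the Stfa3 probe set also picks up other stefins was not tested. Data outside the comparison of named genes also held calls: of 10092 probe sets that carry no gene symbol or several, 52 were called at 6 weeks, 47 lower and 5 higher. This was a smaller share than the 1.94% called among the 18193 genes of a single symbol.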

How the results depend on the processing

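The direction of each of the 155 called named genes was the same in every alternative that could be fitted, while the calls were less stable. For most of them this was fixed in advance. Where the groups do not overlap, as for 345 of the 353 called genes, leaving out 1 array cannot change the sign. Fits that changed only the estimate of spread or the genes tested could not change it either. Over all 353 called genes, 2 changed sign when the probe sets of each gene were averaged. For each comparison, every array of its own groups was left out in turn. The called genes of jak3i against PBS at 6 weeks then numbered from 69 to 1142, and of jak3i against jak1i 0 to 1. At the start they numbered 0 to 4, in the interaction 0 to 1 and for jak1i against PBS 13 to 559. List members called ranged from 3 to 7 (cytotoxic), 2 to 7 (T cell), 2 to 6 (checkpoint), 1 to 3 (CXCR3), 2 to 5 (other chemokines), 0 to 4 (STAT targets), 0 to 9 (GTPases), 2 to 11 (interferon gamma), 5 to 21 (type I), 2 to 11 (MHC class I), 1 to 6 (cytokines), 0 to 3 (pattern recognition), 2 to 5 (adhesion), 1 to 5 (stress keratins), 0 to 5 (terminal differentiation), 0 to 8 (adipokines), 0 to 24 (fat lipid) and 0 to 18 (secretoglobin). Fits on the compared arrays only, with fewer samples behind the spread, gave 39 genes at 6 weeks, 6 at the start, 45 in the interaction and 20 for jak1i, and in those lists 3 cytotoxic, 1 T cell, 1 checkpoint, 2 chemokine, 0 STAT target, 0 GTPase, 1 interferon gamma, 4 type I, 0 MHC class I, 1 cytokine, 1 pattern recognition, 0 adhesion, 0 terminal differentiation, 0 adipokine, 0 lipid and 1 secretoglobin genes. Centring gave 2 genes in the interaction and 7 secretoglobin genes. Without dim genes there were 8 adhesion and 7 secretoglobin genes, and with the mean of all probe sets 1 lipid gene. The hair keratin covariate, chosen after seeing the data, gave 4 GTPase, 1 adipokine and 0 lipid genes. The cause of these changes was not tested. Same-numbered arrays deviated in opposite senses (correlations -0.44, -0.11 and -0.36). These correlations run over all genes and cannot exclude a smaller effect shared by same-numbered arrays. A replicate block gave 282 called genes, with 2 lipid and 0 secretoglobin genes. Of 181 called genes with several probe sets, 28 had one of the other sign. These included Prf1 (0.04), Tap1 (0.04), Pycard (0.05), Slamf1 (0.04) and Pck1 (-0.04). Other genes had a probe set of the same sign near 0, such as Itgal (-0.05) and Mrap (0.05).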

Other observations

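Called genes outside the lists, chosen here after their values were seen, included transcription factors of cytotoxic T cells. Tbx21, the factor T-bet, was 4.65, 4.57 and 4.49 in jak3i skin against 6.10, 6.37 and 6.37 in PBS skin (-1.71, SE 0.32, limma, adjusted p = 0.00673), with both groups tight and no overlap, and it was called whichever array was left out. Runx3 differed by -1.25 and Ikzf3 by -1.62. Several NF-kB genes were lower as well: Relb was 6.61, 7.46 and 7.14 against 7.99, 7.94 and 7.85 (-0.86, SE 0.15, adjusted p = 0.00593) and Nfkbie, an inhibitor of the pathway, differed by -1.81, both also called in every such fit, whereas Nfkb2 at -0.89 and the kinase gene Map3k14 at -0.98 lost their calls without PBS replicate 2 or 3, that of Map3k14 also without jak3i replicate 1 or 2.

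The largest fall among the called genes was that of an unnamed gene model, 2610528A11Rik, at 4.40, 4.37 and 4.08 against 9.39, 10.72 and 11.28 (-6.18, SE 1.03, adjusted p = 0.00397), called whichever array was left out. Ms4a4b, a membrane protein of T cells, was 5.39, 5.64 and 6.17 against 8.75, 9.05 and 8.95 (-3.18, SE 0.51, adjusted p = 0.00386), and Ddx60, an antiviral helicase, was 5.43, 6.12 and 5.86 against 8.34, 8.46 and 9.01 (-2.80, SE 0.44, adjusted p = 0.00382); both were also called in each of those fits. The jak3i values of 2610528A11Rik, Ms4a4b and Ddx60 all lay under the limit for dim genes. Among the rises, Klf15, a factor induced by glucocorticoids, was 7.97, 8.90 and 9.59 against 7.85, 6.70 and 7.15 (1.59, SE 0.37, adjusted p = 0.0276), and its call was lost without jak3i replicate 2 or 3 or PBS replicate 2 or 3.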
